A study of Mus musculus with 6 samples.

Results

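The 10 genes described here are targets of the liver X receptors (LXR) and genes of macrophage lipid efflux and lipid storage: Abca1, Abcg1, Mylip, Srebf1, Lpcat3, Apoe, Apoc1, Pltp, Plin2 and Scd1. They were chosen by name, with earlier results of these data known. They are 10 of 53546 genes in the count tables, and all 10 were among the 20541 genes with enough counts to be tested. RNA came from primary non-parenchymal cells of the liver, a preparation meant to hold Kupffer cells, other leukocytes and the cells of sinusoid walls, with hepatocytes removed. There were 3 libraries from wild type male mice and 3 from SRA-/- male mice, which lack scavenger receptor A, a macrophage receptor for modified lipoproteins that is encoded by Msr1. Mice of both genotypes had received acetaminophen into the peritoneum at 400 mg/kg, and the cells were taken 6 h later. No library came from untreated mice, so a response to the drug cannot be told apart in any value here. The sources used here give no strain, age or disrupted exon. The titles number the replicates as biological, and the labels do not say whether each was 1 mouse, so p-values measure the spread between these libraries.

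LXR are nuclear receptors that bind oxidised derivatives of cholesterol and act on DNA together with a retinoid X receptor. In macrophages that have taken up lipoproteins or dead cells, they raise the transporters Abca1 and Abcg1, which move cholesterol out of the cell, and apolipoprotein E, which accepts it. They also raise Srebf1 and with it fatty acid synthesis. Hepatocytes use many of the same genes, in particular Apoe, Apoc1, Srebf1 and Scd1, so that RNA of hepatocytes in the cell fraction counts toward them.

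The LXR site is shown in the promoters of Abca1 and Srebf1 because it is what ties these genes to the receptor. The promoter of Plin2, the gene whose groups stood apart, is shown beside them. RefSeq promoter windows (build GRCm38.p6) matched 7 of the 10 genes, with 11 windows in all. There was no entry for Abcg1, Apoc1 and Scd1. Each printed stretch is 120 bases long and runs 5′ to 3′ along the gene. That of Abca1 lies at chr4:53159896-53160015 (minus strand) and ends at the base before the start of transcription. That of Srebf1 lies at chr11:60210542-60210661 (minus strand), from 190 to 71 bases before the most downstream of the 3 start sites listed. That of Plin2 lies at chr4:86670060-86670179 (minus strand) and also ends at the base before the start. Capitals mark matches, on either strand, to a core of the LXR site, which is GGTTA followed after any 5 bases by GGTCA.
Abca1: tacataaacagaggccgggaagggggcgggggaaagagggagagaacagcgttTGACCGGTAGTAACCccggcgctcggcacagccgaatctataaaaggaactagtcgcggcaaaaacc
Srebf1: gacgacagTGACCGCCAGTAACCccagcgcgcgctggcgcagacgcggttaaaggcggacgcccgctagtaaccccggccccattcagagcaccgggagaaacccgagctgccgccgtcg
Plin2: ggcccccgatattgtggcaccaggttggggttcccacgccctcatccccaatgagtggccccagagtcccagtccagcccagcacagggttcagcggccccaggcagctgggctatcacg

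Within 250 bases before the start, the LXR core was found in 15 of 32851 RefSeq promoter windows (0.0457%), and those of Abca1 and Srebf1 were among them. The core was written down with these well-known sites in view, so its presence there is no result. In Abca1 it lay 67 to 53 bases before the start, on the opposite strand, where it reads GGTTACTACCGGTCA. In Srebf1 it lay 182 to 168 bases before the start, also on the opposite strand, where it reads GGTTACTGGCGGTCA. The ideal direct repeat, AGGTCA given again after any 4 bases, was in 5 windows (0.0152%) and in none of the 11 windows of these genes, which says only that these letters are not there.

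Library totals ran from 23757203 to 44003902 counts. The mitochondrial genome gave 19.8%, 9.95% and 16.1% of the counts in wild type replicates 1, 2 and 3. It gave 11.2%, 21.1% and 6.64% in SRA-/- replicates 1, 2 and 3. Msr1 still gave reads in SRA-/- libraries, at 40.2, 33.6 and 41.99 CPM (counts scaled to library size, per 1e+06) against 38.6, 73.5 and 113.6 CPM in wild type libraries, and a count over the whole gene does not check the disrupted part. RNA of hepatocytes was in every library: summed over 22 hepatocyte genes, the share of counts was 4.44% to 10.5% in wild type and 7.38% to 12.6% in SRA-/- libraries. Its lowest value was that of wild type replicate 3 and its highest that of SRA-/- replicate 3. Of 16 genes of Kupffer cells and macrophages, 0 were at 0 in every library, and together they took 0.125% to 0.293% of the counts in wild type and 0.170% to 0.287% in SRA-/- libraries. Neutrophil genes took 0.0143% to 0.0204% in wild type and 0.0204% to 0.0439% in SRA-/- libraries. Transcripts of pancreatic acinar cells took 0.0517% to 0.107% in wild type libraries and 0.0370% in SRA-/- replicate 2, against 0.000514% and 0.000320% in SRA-/- replicates 1 and 3.

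None of the 10 genes changed between the genotypes by edgeR's quasi-likelihood test at an adjusted p of 0.05, a threshold that 0.0487% of all tested genes passed, 0.0341% higher and 0.0146% lower in SRA-/- libraries. DESeq2 and limma-voom with quality weights also called 0 of them. DESeq2 called 0.171% of the 35174 genes with any count, and limma-voom 0.482% of the 20541 genes. An unadjusted p under 0.05 was found for 1 of the 10, Plin2, by each of the 3 tools. Over all tested genes that share was 3.22% by edgeR, 2.32% higher and 0.896% lower. It was 2.36% by DESeq2, over its 35174 genes, and 11.7% by limma-voom, so that by limma-voom 1 of 10 is about the background. Of the 10 log2 fold changes 8 were above 0, with a median of 0.23, against 48.3% and a median of -0.01 over all tested genes. The genes were chosen with earlier results of these data known, so this contrast and those of the lists below are descriptions. Plin2 was also the one gene of the 10 whose libraries did not overlap between the groups. Over all tested genes 7.30% did not overlap, 3.97% with SRA-/- libraries higher and 3.33% with them lower.

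Plin2 encodes perilipin 2, the protein that coats lipid droplets in most cells other than fat cells (chromosome 4, 86566623 to 86588297, mm39). It stood at 514.7, 470.5 and 362.2 CPM in wild type replicates 1, 2 and 3 and at 683.0, 746.6 and 627.3 CPM in SRA-/- replicates 1, 2 and 3. Every SRA-/- library lay above every wild type library, the closest being SRA-/- replicate 3 and wild type replicate 1. The means were 449.1 ± 78.5 and 685.6 ± 59.7 CPM (SD, n = 3 each). The log2 fold change was 0.61 ± 0.23 (SE), or 1.53-fold with a 95% interval of 1.07 to 2.19 (edgeR unadjusted p 0.0258, adjusted p 0.9999). The difference therefore did not pass the test over all genes. After adjustment p was 0.529 with DESeq2 and 0.199 with limma-voom.

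Within wild type libraries Plin2 and the share of hepatocyte RNA had the same order, replicate 1 highest and replicate 3 lowest. Among SRA-/- libraries and between the groups the order differed. SRA-/- replicate 2, which held the most Plin2, was the second lowest library in the hepatocyte list, and wild type replicate 1, the second highest in that list, had less Plin2 than each SRA-/- library. Adding mean hepatocyte gene level to the model gave 0.57 for Plin2 (edgeR unadjusted p 0.0101, adjusted p 0.654). Adding mean macrophage gene level gave 0.62 (edgeR unadjusted p 0.0368, adjusted p 0.9999). With 1 library left out at a time, values ran from 0.48 (wild type replicate 3 out) to 0.73 (wild type replicate 1 out), at an unadjusted edgeR p of 0.0142 to 0.0727. In whole non-parenchymal fractions, more cells of a type and more RNA per cell cannot be told apart.

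**Figure D1:**
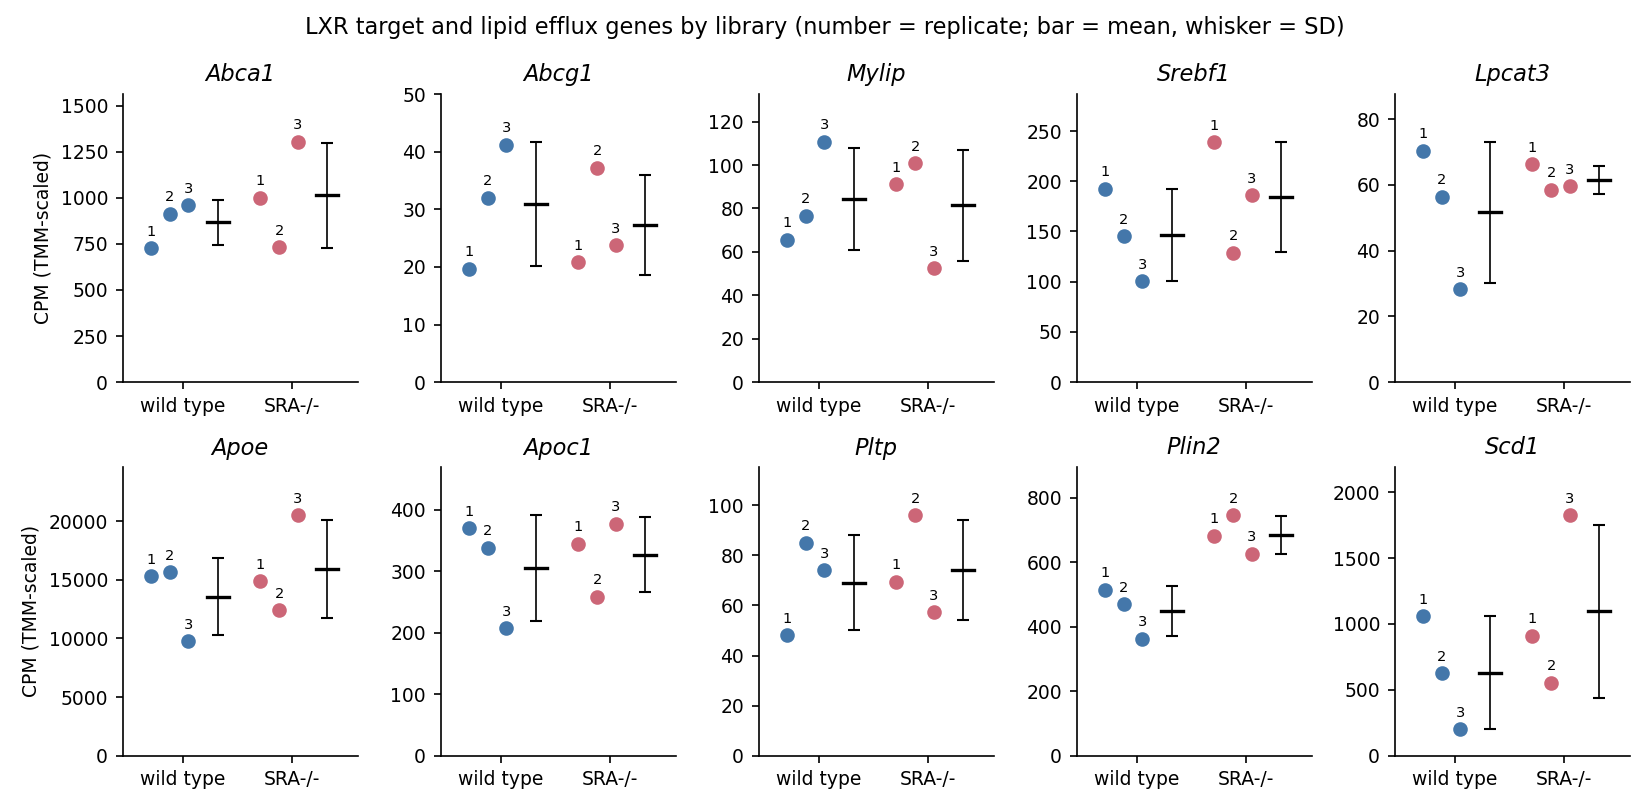
Level of each of the 10 genes in every library, in CPM after TMM scaling on linear axes from 0, with the replicate number above each point and the mean and SD of each group as a bar and whisker to its right (n = 3 each). Plin2 is the gene whose groups do not overlap; wild type replicate 3 is the lowest library for Scd1, Srebf1, Lpcat3, Apoe, Apoc1 and Plin2.

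Abca1 encodes the transporter that hands cholesterol and phospholipid to lipid-poor apolipoprotein A-I (chromosome 4, 53030787 to 53159895). It stood at 726.6, 912.3 and 960.8 CPM in wild type replicates 1, 2 and 3 and at 1001, 732.4 and 1305 CPM in SRA-/- replicates 1, 2 and 3. The groups overlapped through SRA-/- replicate 2, which lay beside wild type replicate 1 at the bottom. For Abca1 the log2 fold change was 0.22 ± 0.28 (SE), or 1.17-fold with a 95% interval of 0.754 to 1.81 (edgeR adjusted p 0.9999). Without SRA-/- replicate 3 it was -0.0013, so that the direction rested on that library.

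Abcg1, which passes cholesterol to HDL particles (chromosome 17, 31276649 to 31336962), was the least abundant of the 10 per length of transcript. Its levels were 19.7, 31.97 and 41.2 CPM in wild type replicates 1, 2 and 3 and 20.8, 37.2 and 23.8 CPM in SRA-/- replicates 1, 2 and 3. Low and high libraries occurred in both groups. In the fit, Abcg1 had a log2 fold change of -0.19 ± 0.30 (SE), or 0.880-fold with a 95% interval of 0.552 to 1.40 (edgeR adjusted p 0.9999). The sign turned with the hepatocyte list as a covariate (0.04) and without wild type replicate 3 (0.08).

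Abca1 and Abcg1, both textbook targets of LXR, did not run in parallel across libraries. Abca1 gave 36.8, 28.5 and 23.3 counts for each Abcg1 count in wild type replicates 1, 2 and 3 and 48.1, 19.7 and 54.9 in SRA-/- replicates 1, 2 and 3. The mean log2 ratio was 4.86 ± 0.33 in wild type and 5.22 ± 0.80 in SRA-/- libraries (SD, n = 3 each), a difference of 0.36 (exact two-sided permutation test, p = 0.5). Such a test of 3 against 3 libraries cannot give a p below 0.1. It was run on 6 pairs of genes, and the Benjamini-Hochberg adjusted p was 0.7 for this pair.

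Mylip encodes a ubiquitin ligase, also called Idol, that lowers lipoprotein uptake (chromosome 13, 45543218 to 45565498). It stood at 65.5, 76.7 and 110.8 CPM in wild type replicates 1, 2 and 3 and at 91.1, 100.9 and 52.5 CPM in SRA-/- replicates 1, 2 and 3. The highest library was wild type and the lowest SRA-/-, both numbered 3. For Mylip the log2 fold change was -0.05 ± 0.28 (SE), or 0.967-fold with a 95% interval of 0.625 to 1.496 (edgeR adjusted p 0.9999). Its sign also turned with the hepatocyte covariate, at 0.14, and without either library numbered 3, at 0.20 without the wild type one and 0.19 without the SRA-/- one.

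Apolipoproteins and lipid transfer were led by Apoe, the ligand through which lipoprotein remnants are taken up and an acceptor of effluxed cholesterol (chromosome 7, 19430034 to 19433113). Apoe alone took 1.06% to 1.90% of all counts. It stood at 15312, 15659 and 9743 CPM in wild type replicates 1, 2 and 3 and at 14856, 12391 and 20514 CPM in SRA-/- replicates 1, 2 and 3. The lowest library, wild type replicate 3, and the highest, SRA-/- replicate 3, were also those of the hepatocyte genes, and the other 4 libraries were mixed. For Apoe the log2 fold change was 0.23 ± 0.40 (SE), or 1.17-fold with a 95% interval of 0.631 to 2.18 (edgeR adjusted p 0.9999). With the hepatocyte covariate it was 0.07.

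Apoc1, a small apolipoprotein encoded beside Apoe (chromosome 7, 19423406 to 19426585), followed Apoe closely. Its levels were 370.0, 338.1 and 207.3 CPM in wild type replicates 1, 2 and 3 and 344.7, 258.6 and 377.0 CPM in SRA-/- replicates 1, 2 and 3. The log2 fold change was 0.10 ± 0.27 (SE), or 1.07-fold with a 95% interval of 0.706 to 1.63 (edgeR adjusted p 0.9999). Its sign turned with the hepatocyte covariate (-0.03), without wild type replicate 3 (-0.12) and without SRA-/- replicate 3 (-0.02). Apoe gave 41.4 to 47.0 counts for each Apoc1 count in wild type and 43.1 to 54.4 in SRA-/- libraries, a difference in mean log2 ratio of 0.11 (exact two-sided permutation test, p = 0.4; adjusted p 0.7 over the 6 pairs). Among the 10 genes, these were each other's nearest in pattern, with a root mean square difference of 0.13 in log2 CPM centred on the mean of the 6 libraries.

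Pltp encodes the phospholipid transfer protein of plasma (chromosome 2, 164681438 to 164699631). It stood at 48.1, 85.1 and 74.1 CPM in wild type replicates 1, 2 and 3 and at 69.4, 96.1 and 57.2 CPM in SRA-/- replicates 1, 2 and 3. The groups overlapped, with SRA-/- replicate 2 highest and wild type replicate 1 lowest, as in the macrophage list. The log2 fold change was 0.10 ± 0.26 (SE), or 1.07-fold with a 95% interval of 0.716 to 1.61 (edgeR adjusted p 0.9999). With the macrophage covariate it was -0.0060. It was also below 0 by limma-voom (-0.20), without wild type replicate 1 (-0.09) and without SRA-/- replicate 2 (-0.12). Of its exon bases 19.3% are shared with Ctsa on the other strand, and reads there were not counted for either gene. Set against Lbp, a relative of Pltp that hepatocytes make in quantity, its log2 ratio was -0.90 ± 0.84 in wild type and -0.77 ± 0.90 in SRA-/- libraries (SD, n = 3 each; exact two-sided permutation test, p = 0.7; adjusted p 0.7 over the 6 pairs).

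**Figure D2:**
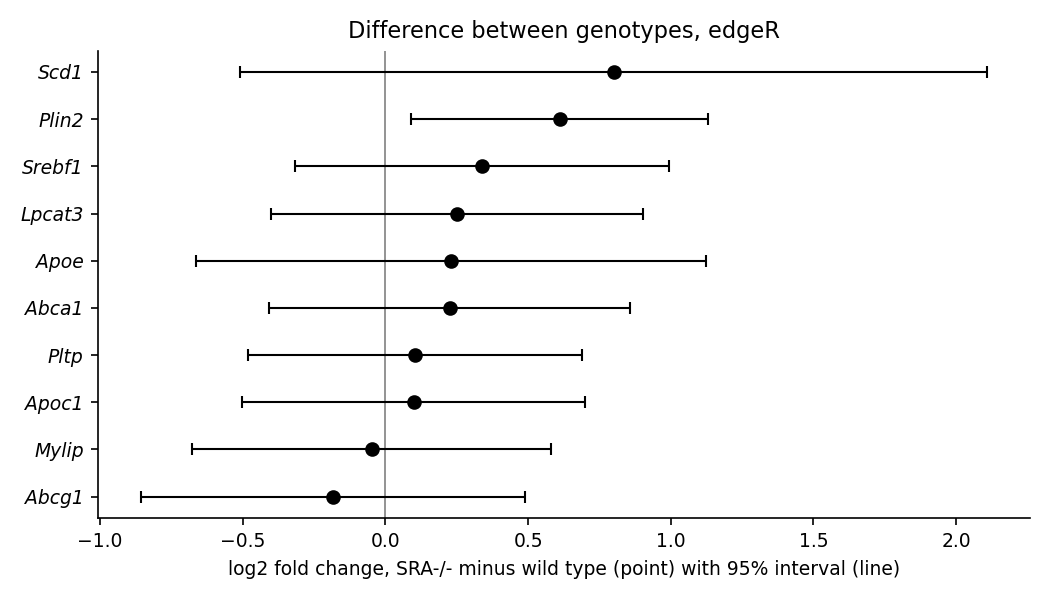
Log2 fold change of each gene, SRA-/- minus wild type, as a point with its 95% interval from edgeR's fit across all genes. Plin2 is the one gene whose interval, unadjusted for the number of genes, lies above 0, and Scd1 has the widest interval, from -0.51 to 2.11.

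Of the genes that make and remodel fatty acids, Srebf1 encodes SREBP1, the transcription factor through which LXR raises lipogenesis (chromosome 11, 60089915 to 60113407). It stood at 192.3, 145.2 and 100.7 CPM in wild type replicates 1, 2 and 3 and at 238.6, 128.9 and 186.3 CPM in SRA-/- replicates 1, 2 and 3. SRA-/- replicate 1 was highest and wild type replicate 3 lowest, with overlap in between. For Srebf1 the fitted log2 change was 0.34 ± 0.29 (SE), or 1.26-fold with a 95% interval of 0.802 to 1.99 (edgeR adjusted p 0.9999). Counts of its 2 kinds of transcript, SREBP1a and SREBP1c, were summed under 1 name, so the promoter with the LXR site could not be followed on its own. Against Srebf2, which encodes the cholesterol-sensing sister factor, its mean log2 ratio was 0.72 ± 0.21 in wild type and 0.78 ± 0.33 in SRA-/- libraries (SD, n = 3 each; exact two-sided permutation test, p = 0.7; adjusted p 0.7 over the 6 pairs).

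Scd1, the desaturase that makes oleate and palmitoleate, is a target of both SREBP1 and LXR (chromosome 19, 44382894 to 44396318). It had the largest fold change of the 10 and the largest spread. Its levels were 1060, 627.2 and 201.5 CPM in wild type replicates 1, 2 and 3 and 910.3, 552.7 and 1826 CPM in SRA-/- replicates 1, 2 and 3. The highest library was 9.06-fold above the lowest, against 1.80-fold to 2.49-fold for the other 9 genes. SRA-/- replicates 1 and 2 lay within the wild type range. The log2 fold change was 0.80 ± 0.58 (SE), or 1.74-fold with a 95% interval of 0.703 to 4.32 (edgeR unadjusted p 0.202, adjusted p 0.9999).

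The libraries that were extreme in Scd1 were those that were extreme in hepatocyte RNA. In both, the order was wild type replicate 3 at the bottom, SRA-/- replicate 3 at the top and wild type replicate 1 next to the top. With the hepatocyte list as a covariate the log2 fold change of Scd1 was 0.46 (edgeR unadjusted p 0.0522, adjusted p 0.949). The part of hepatocyte RNA in Scd1 was not tested beyond this covariate. With the macrophage list as a covariate, the log2 fold change of Scd1 was 0.96 (edgeR unadjusted p 0.0750, adjusted p 0.9999). Without wild type replicate 3 it was 0.38, and without SRA-/- replicate 3 it was 0.22. It was 1.40 without wild type replicate 1, 0.80 without wild type replicate 2, 0.92 without SRA-/- replicate 1 and 1.11 without SRA-/- replicate 2. Without wild type replicate 3 and SRA-/- replicate 3 together, a pair chosen after the values were seen, it was -0.20. Scd1 gave 92.9, 40.2 and 8.80 counts for each count of Scd2, its neighbour on chromosome 19 that many cells outside hepatocytes use, in wild type replicates 1, 2 and 3. The corresponding values were 81.1, 26.1 and 169.0 in SRA-/- replicates 1, 2 and 3. The mean log2 ratio was 1.15 higher in SRA-/- libraries, with overlap between the groups (exact two-sided permutation test, p = 0.5; adjusted p 0.7 over the 6 pairs).

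Lpcat3 encodes the enzyme that puts polyunsaturated fatty acids into phospholipids (chromosome 6, 124639990 to 124681381). It stood at 70.4, 56.4 and 28.3 CPM in wild type replicates 1, 2 and 3 and at 66.2, 58.6 and 59.6 CPM in SRA-/- replicates 1, 2 and 3. Wild type replicate 3 lay far below the other 5 libraries, and the 3 SRA-/- libraries lay between wild type replicates 1 and 2. The log2 fold change was 0.25 ± 0.29 (SE), or 1.19-fold with a 95% interval of 0.758 to 1.87 (edgeR adjusted p 0.9999). Without wild type replicate 3 it was -0.04. Srebf1 and Lpcat3 share 3.11% and 10.2% of their exon bases with other genes.

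**Figure D3:**
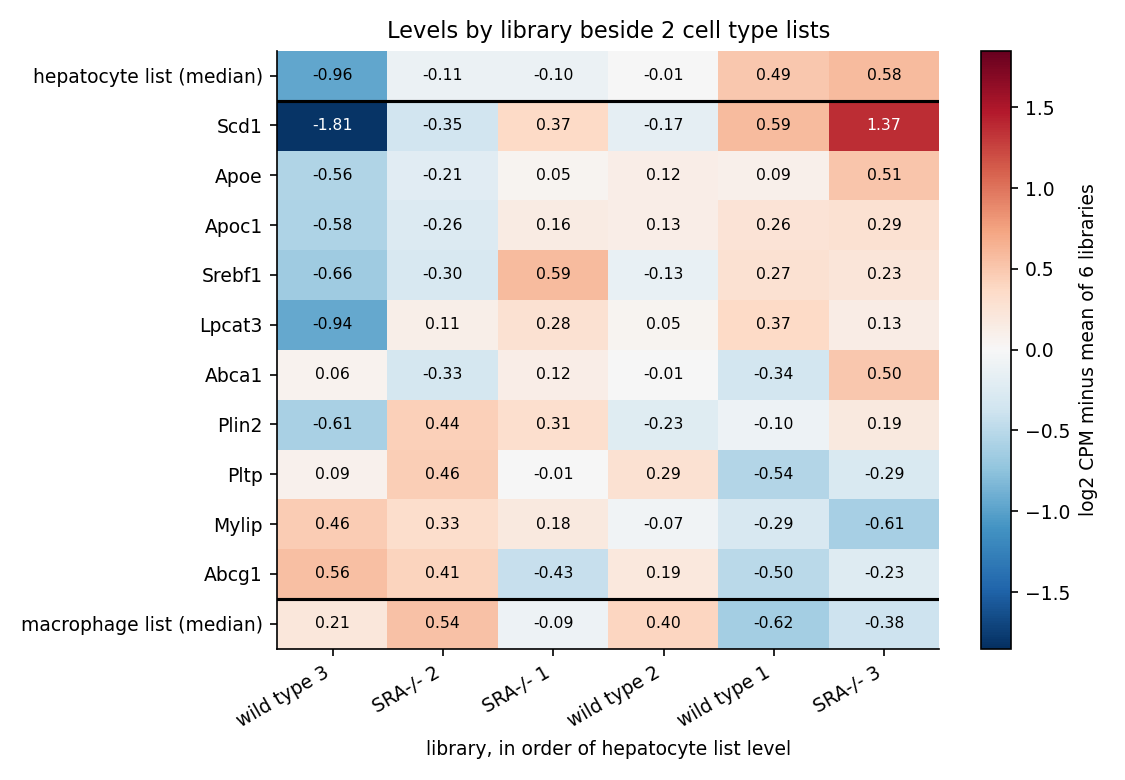
Log2 CPM minus the mean of the 6 libraries, for the 10 genes (rows) in each library (columns, in order of the hepatocyte list), between the median of the hepatocyte list (top row) and that of the macrophage list (bottom row); red is above and blue below the mean. Scd1, Apoe, Apoc1, Srebf1, Lpcat3 and Plin2 are lowest in wild type replicate 3, as the hepatocyte list is. Abca1, Abcg1 and Pltp are lowest in wild type replicate 1, as the macrophage list is, and Mylip is lowest in SRA-/- replicate 3. Abca1 is nearly as low in SRA-/- replicate 2 (-0.33), where the macrophage list is highest.

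Across the 6 libraries the 10 genes differed in which libraries were high and low. Scd1, Apoe, Apoc1, Srebf1, Lpcat3 and Plin2 were lowest in wild type replicate 3, where the median hepatocyte gene lay at -0.96 log2 units from its mean. Of these, Scd1, Apoe and Apoc1 were highest in SRA-/- replicate 3, where the hepatocyte median lay at 0.58. Abca1, Abcg1 and Pltp were lowest in wild type replicate 1, where the median macrophage gene lay at -0.62, its lowest, and the hepatocyte median at 0.49. Pltp was highest in SRA-/- replicate 2, where the macrophage median lay at 0.54. Mylip and Abcg1 were highest in wild type replicate 3, which was highest in the list of sinusoidal endothelial cells, at 0.48, and lowest in the hepatocyte list. Abca1 was highest in SRA-/- replicate 3, where the hepatocyte list was highest and the macrophage median lay at -0.38. It was nearly as low in SRA-/- replicate 2 (-0.33), where the macrophage median was highest, as in wild type replicate 1 (-0.34). Both also had a higher share of mitochondrial counts than any other library, at 21.1% and 19.8%. SRA-/- replicate 3 had the lowest, 6.64%. Wild type replicate 3 had a higher share than wild type replicate 2 (16.1% against 9.95%) but also more Abca1. The part of the mitochondrial share in Abca1 was not tested. The part of cell makeup in these levels was not tested beyond the 2 covariates.

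Per length, the 10 genes spanned more than 3 orders of magnitude. Mean levels over the 6 libraries, in CPM per kilobase of exon (RPKM), were 6897 for Apoe, 424.7 for Apoc1, 176.4 for Scd1, 161.6 for Plin2 and 90.7 for Abca1. They were 29.3 for Srebf1, 28.0 for Pltp, 25.7 for Mylip, 17.3 for Lpcat3 and 3.99 for Abcg1. Apoe ranked 11 and Abcg1 7419 of the 20541 tested genes. Apoe ranged from 4557 to 9595 RPKM, above all of Apoc1, and Abcg1, from 2.70 to 5.65 RPKM, lay below all of Lpcat3. Between these, neighbours in the order overlapped in their ranges over the libraries, except that Abca1 (70.1 to 125.9 RPKM) lay wholly above Srebf1 (17.9 to 42.4 RPKM).

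For each gene, the tested genes most like it across the 6 libraries were sought among 9952 named genes with a mean of at least 5 CPM, by the root mean square difference of centred log2 CPM. Scd1 was nearest to Slc2a2, the glucose transporter of hepatocytes (0.13), and to Hsd17b13, a lipid droplet enzyme of hepatocytes (0.22). Pltp was near to Sdc3, a syndecan (0.07). Plin2 was nearest to Acsf2 (0.09) and Ces2g (0.10), Abca1 to Fnip2 (0.05) and Tgif1 (0.06), and Abcg1 to Scd2 (0.13) and Igha (0.13). Apoe was nearest to Tmbim6 (0.03) and Lpgat1 (0.06), Apoc1 to Thoc1 (0.06) and Ggcx (0.07), and Srebf1 to Slc25a25 (0.08) and Erbb4 (0.11). Lpcat3 was nearest to Slc25a10 (0.08) and Tfcp2l1 (0.09), and Mylip to Septin4 (0.07) and Galnt15 (0.08). With 6 libraries and 9952 candidates, near neighbours occur for any gene, and these are descriptions.

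No difference was called in the receptors. Of 12 LXR and retinoid X receptors and co-regulators, 0 changed by edgeR, DESeq2 or limma-voom and 0 had an unadjusted p under 0.05 by edgeR; 5 were above 0, with a median log2 fold change of -0.03. Nr1h3, which encodes LXR alpha, stood at 35.6 to 49.3 CPM in wild type and 33.5 to 52.4 CPM in SRA-/- libraries. Nr1h2, which encodes LXR beta, stood at 66.7 to 76.8 and 68.1 to 79.5 CPM. Rxra, the most abundant of the list per length, stood at 312.2 to 495.7 and 394.4 to 510.8 CPM. For each of these 3 the ranges of the groups overlapped. The smallest p-values were those of Rxrg (0.51 ± 0.31), Ncoa1 (-0.17 ± 0.19) and Nr1h2 (0.07 ± 0.16), as log2 fold changes with SE.

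Of 19 further targets of LXR, 15 were above 0, with a median of 0.15. Of these, 0 changed by edgeR or DESeq2 and 1 by limma-voom, Fasn, which was also the 1 gene with an unadjusted p under 0.05 by edgeR. Over all tested genes limma-voom called 0.482%, and 3.22% had such a p by edgeR. Fasn encodes fatty acid synthase (chromosome 11, 120696672 to 120715373). It stood at 224.8, 172.1 and 151.7 CPM in wild type replicates 1, 2 and 3 and at 359.7, 279.4 and 378.3 CPM in SRA-/- replicates 1, 2 and 3. Every SRA-/- library was above every wild type library. Its log2 difference was 0.89 ± 0.23 (SE), and the adjusted p was 0.767 (edgeR), 0.0629 (DESeq2) or 0.0347 (limma-voom). Arl4c, a small GTPase of cholesterol transport, had 0.52 ± 0.31, and Gpr137b, a lysosomal membrane protein, had 0.44 ± 0.25, also without overlap. Cd5l, a protein secreted by Kupffer cells and the most abundant of the list per length, had -0.02 ± 0.36, with 138.3 to 375.3 CPM in wild type and 215.2 to 356.6 CPM in SRA-/- libraries.

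Lipogenic genes that SREBP1 drives were above 0 in 16 of 18 cases, with a median log2 fold change of 0.32. By edgeR 0 changed and 3 had an unadjusted p under 0.05, all higher, against 2.32% higher over all tested genes. DESeq2 called 0 and limma-voom 2, Fasn and Thrsp, against 0.482% of all tested genes. Hepatocytes express these genes in quantity, and 17 of the 22 hepatocyte genes were also above 0, with a median of 0.19 and 0 changed by edgeR, DESeq2 or limma-voom. The part of hepatocyte RNA in the lipogenic genes as a group was not tested. Thrsp, a regulator of lipogenesis in liver (chromosome 7, 97062145 to 97066937), stood at 23.5, 12.5 and 13.2 CPM in wild type replicates 1, 2 and 3 and at 49.4, 19.7 and 43.2 CPM in SRA-/- replicates 1, 2 and 3. Its groups overlapped through SRA-/- replicate 2, and the log2 difference was 1.19 ± 0.36 (SE; adjusted p 0.997 by edgeR, 0.0428 by limma-voom). Acacb, the acetyl-CoA carboxylase of mitochondria (chromosome 5, 114284596 to 114388822), stood at 63.4 to 83.1 CPM in wild type and 102.9 to 130.4 CPM in SRA-/- libraries, without overlap. Its log2 fold change was 0.64 ± 0.19 (SE; edgeR adjusted p 0.931). Fads2, a desaturase of polyunsaturated fatty acids and the most abundant of the list per length, had 0.48 ± 0.28. Acaca, Fasn and Scd2 are on both of these lists.

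Genes of lipid droplets other than Plin2 were above 0 in 15 of 18 tested cases, with a median of 0.25. By edgeR 0 changed and 4 had an unadjusted p under 0.05, all higher, against 2.32% higher over all tested genes. DESeq2 and limma-voom called 0. The list holds genes of hepatocytes, such as Hsd17b13, and the hepatocyte list lay on the same side (17 of 22 above 0, median 0.19). Its part in these values was not tested. Dgat1, which makes triglyceride (chromosome 15, 76386215 to 76396153), stood at 52.0, 56.5 and 50.8 CPM in wild type replicates 1, 2 and 3 and at 71.3, 65.6 and 75.4 CPM in SRA-/- replicates 1, 2 and 3. Its groups did not overlap, and the log2 fold change was 0.42 ± 0.16 (SE; edgeR adjusted p 0.9999). Cidec, a droplet fusion protein (chromosome 6, 113401595 to 113412721), stood at 14.5 to 22.5 and 21.1 to 45.2 CPM, with a log2 fold change of 0.86 ± 0.28 (SE). Fitm1, a protein of droplet budding, had 1.27 ± 0.38 at a level near 1 CPM, and Hsd17b13, the most abundant of the list per length, had 0.44 ± 0.51. Plin3, the perilipin found in all cells, had 0.21 ± 0.21. Plin2 gave 21.4, 26.9 and 23.4 counts for each Plin3 count in wild type replicates 1, 2 and 3 and 29.2, 38.5 and 26.9 in SRA-/- replicates 1, 2 and 3. SRA-/- replicate 3 thus came within rounding of wild type replicate 2, and the difference in mean log2 ratio was 0.39 (exact two-sided permutation test, p = 0.1, the smallest it can give; adjusted p 0.6 over the 6 pairs).

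**Figure D4:**
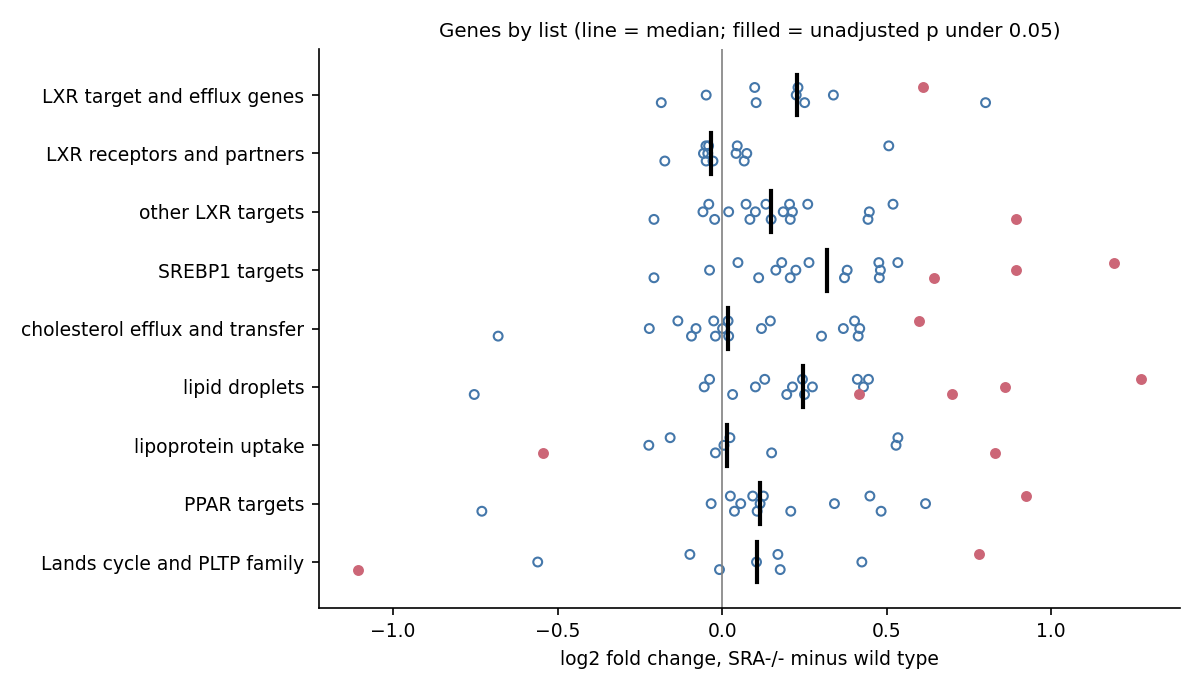
Log2 fold changes, SRA-/- minus wild type, of the tested genes of each list (1 point per gene, filled where the unadjusted p by edgeR is under 0.05), with the median of the list as a vertical line. Medians are 0.32 for SREBP1 targets and 0.25 for lipid droplet genes, against -0.03 for the receptors and partners; no point passed edgeR's adjusted threshold.

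Other genes of cholesterol efflux and transfer were spread about 0. Of 18 tested, 11 were above 0, with a median of 0.02, and 0 changed by edgeR, DESeq2 or limma-voom. Where 3.22% of all tested genes had an unadjusted p under 0.05 by edgeR, 1 of these did. That was Nceh1, which hydrolyses cholesteryl ester in macrophages (chromosome 3, 27237114 to 27338757). It stood at 26.0, 27.2 and 23.0 CPM in wild type replicates 1, 2 and 3 and at 38.0, 43.3 and 34.0 CPM in SRA-/- replicates 1, 2 and 3. The groups did not overlap, and the log2 fold change was 0.60 ± 0.17 (SE; edgeR adjusted p 0.907). Gramd1b, a carrier of cholesterol to the endoplasmic reticulum, had -0.68 ± 0.38, and Stard4, another sterol carrier, had 0.41 ± 0.24. Apoa1, the apolipoprotein that accepts cholesterol from Abca1 and a product of hepatocytes, had 0.37 ± 0.40.

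Lipoprotein receptors and their regulators, the route of uptake that faces efflux, were above 0 in 6 of 10 cases, with a median of 0.01. Of these 0 changed by edgeR, DESeq2 or limma-voom. By edgeR 2 had an unadjusted p under 0.05 (3.22% of all tested genes), 1 in each direction. Cd36, a scavenger receptor for oxidised lipoproteins and fatty acids (chromosome 5, 17986688 to 18093799), stood at 88.1, 122.5 and 163.7 CPM in wild type and 93.3, 83.2 and 80.2 CPM in SRA-/- replicates 1, 2 and 3. Its log2 fold change was -0.54 ± 0.23 (SE; edgeR adjusted p 0.9999), and the groups overlapped through wild type replicate 1. Lrp1, a receptor for lipoprotein remnants and the most abundant of the list per length, had 0.02 ± 0.30.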

How the data were processed

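The deposited values are raw counts per gene, 1 file per library, neither normalised nor pooled. Per the file headers, featureCounts 2.0.2 assigned reads to GENCODE M26 exons, summed by gene name, in paired-end mode and without regard to strand, so reads from antisense transcripts cannot be told apart. Counting of pairs was not switched on, and 68.5% to 71.9% of the counts from 1 to 4 were even, so a fragment usually counts as 2. FastQC, STAR and build mm39 are named in the submitters' processing notes. Ribosomal RNA had been depleted, per the labels' protocols.

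In R 4.3.3, edgeR 4.0.16 kept 20541 of 53546 genes (filterByExpr), scaled libraries by TMM (factors 0.896 to 1.08) and fitted a robust quasi-likelihood model on genotype, with p adjusted by Benjamini-Hochberg over all tested genes. SE came from the F statistic. The code was tested on simulated data. Library totals of 23757203 to 44003902 counts put a floor of 6 counts, or 3 fragments, at 0.136 to 0.253 CPM, for counting error only. RPKM used the exon lengths in the files. DESeq2 1.42.0 and limma 3.58.1 served as alternatives, and ratios of counts within a library were compared by exact permutation.

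The members and lists were chosen with earlier results of these data known. All 10 members were named, and from each related list the 3 genes with the smallest p and the most abundant one per length. Nr1h3 was added for its role, and some genes that the rule names are not reported here. Apoa1 is on both the efflux and the hepatocyte list. Lists not described elsewhere took 0.0735% to 0.149% (stellate cells), 0.00145% to 0.00390% (lymphocytes), 0.285% to 0.388% (monocytes) and 0.299% to 0.619% (sinusoidal endothelial cells) of the counts. Most of the monocyte share came from Fn1, at 2457 to 3692 CPM. Ly6c2, Ccr2 and Itgam of that list lay at 0.56 to 5.04 CPM, so the share is no measure of monocyte RNA.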

Additional observations from a re-analysis of the deposited data

How the results depend on the processing

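None of the 10 genes passed an adjusted p of 0.05 in any of 16 refits: DESeq2 size factors in edgeR, DESeq2, limma-voom, no filter on low counts, a minimum of 1 CPM in 3 libraries, mitochondrial and hepatocyte genes taken out, a replicate block, the hepatocyte or the macrophage list as covariate, each library left out, and both libraries numbered 3 left out together, the last chosen after seeing the data. Plin2 and Srebf1 kept their sign in all 16. Over all genes, the 10 changed became 60 with DESeq2, which used its own filter on low counts in place of that of edgeR (57 of them among the 20541 genes of edgeR), 99 with limma-voom, 32 with no filter, 17 with the hepatocyte and 6 with the macrophage covariate, and 3 (without SRA-/- replicate 3) to 40 (without SRA-/- replicate 2) with 1 library left out; without wild type replicate 2 or SRA-/- replicate 1 there were 4. With the replicate block there were 5 and Plin2 had 0.62 (edgeR unadjusted p 0.0705). The replicate numbers gave no sign of pairing in expression. Same-numbered libraries had correlations of -0.287, -0.143 and -0.131, and 0 libraries correlated best with their own number. This does not settle whether the samples were handled in pairs.

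Signs turned as follows, and the cause was not tested. By limma-voom Pltp had -0.20, and with the macrophage covariate -0.0060. With the hepatocyte covariate Abcg1 had 0.041, Mylip 0.14 and Apoc1 -0.028. With 1 library left out, Abca1 ran from -0.0013 to 0.41, Abcg1 from -0.47 to 0.076, Mylip from -0.23 to 0.20, Lpcat3 from -0.044 to 0.54, Apoc1 from -0.12 to 0.27 and Pltp from -0.12 to 0.28. The difference in log2 ratio ran from -0.11 to 0.22 for Srebf1 to Srebf2 and from -0.34 to 0.61 for Pltp to Lbp. Without both libraries numbered 3, Abcg1 had 0.16, Mylip 0.43, Lpcat3 -0.022, Apoe -0.18, Apoc1 -0.23 and Scd1 -0.20. Genes without overlap were then 3 of the 10 (Mylip, Apoe and Plin2), where 30.9% of all tested genes did not overlap. With 1 library left out they were 1 to 2: Lpcat3 joined Plin2 without wild type replicate 1 (24.0% of all tested genes) and Abca1 without SRA-/- replicate 2 (17.5%).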

Other observations

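Relatives of Lpcat3 and Pltp in phospholipid remodelling and transfer were on both sides of 0. Of 9 tested, 5 were above 0, with a median log2 fold change of 0.10, and 0 changed by edgeR, DESeq2 or limma-voom. By edgeR 2 had an unadjusted p under 0.05, against 3.22% of all tested genes. Lpcat2, the acyltransferase that makes platelet-activating factor in leukocytes, stood at 2.44, 3.91 and 5.36 CPM in wild type replicates 1, 2 and 3 and at 6.62, 7.21 and 6.31 CPM in SRA-/- replicates 1, 2 and 3, without overlap. Its log2 fold change was 0.78 ± 0.30 (SE; edgeR unadjusted p 0.0265). Among neutrophil genes the median log2 fold change was 1.63, with 11 of 11 tested above 0. By edgeR 0 of them changed and 9 had an unadjusted p under 0.05, all higher, against 2.32% higher over all tested genes. DESeq2 called 2 and limma-voom 1, against 0.171% and 0.482% over all genes. The part of neutrophil genes in Lpcat2 was not tested. Mboat2, an acyltransferase of the family of Lpcat3, was near the floor at 0.47 to 0.62 CPM in wild type and 0.20 to 0.32 CPM in SRA-/- libraries (log2 fold change -1.11 ± 0.48, SE). Lpcat1, an acyltransferase best known from lung surfactant, had -0.56 ± 0.28, and Agpat3, the most abundant of the list per length, had 0.10 ± 0.22.

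Targets of PPAR, the fatty acid receptors to which Plin2 also answers, were above 0 in 13 of 15 cases, with a median log2 fold change of 0.12, and 0 changed by edgeR, DESeq2 or limma-voom. With an unadjusted p under 0.05 by edgeR (3.22% of all tested genes) there was 1, Pdk4, which restrains glucose oxidation. It stood at 29.1, 40.3 and 46.5 CPM in wild type replicates 1, 2 and 3 and at 122.6, 51.0 and 46.0 CPM in SRA-/- replicates 1, 2 and 3. SRA-/- replicate 1 alone was far above the rest, and the log2 fold change was 0.92 ± 0.36 (SE; edgeR unadjusted p 0.0303). Fabp4, a fatty acid carrier of macrophages and capillary endothelium, had -0.73 ± 0.42, and Cyp4a14, the most abundant of the list per length, had 0.02 ± 0.60.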
